A study of Homo sapiens with 9 samples.

Results

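The G2/M and mitosis genes are 37 genes whose products take a cell from the end of DNA replication through division. They were picked for these known roles and identified by their Entrez numbers, and all 37 were found among the 20575 genes of the RNA-seq data. The samples were 9 RNA preparations of Huh7, an established human hepatocellular carcinoma line, collected 48 h after siRNA transfection. The design text of the series speaks of 3 cell lines, whereas every sample is labelled Huh7. They comprised 3 samples with control siRNA (siControl), 3 with siRNA against LATS1 (siLATS1) and 3 with siRNA against LATS2 (siLATS2). All groups received the same transfection reagent, and the labels name no other treatment, whereas the methods of the study also speak of sorafenib. LATS1 and LATS2 are the kinases at the end of the Hippo pathway, which restrain the co-activators YAP and TAZ. The comparison asked whether siRNA against either kinase changed the transcript levels of the mitotic genes.

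Transcripts of this group peak together in late G2 and mitosis. The MuvB protein complex, with B-MYB and FOXM1, switches them on through the cell cycle homology region (CHR) of their promoters, often near CCAAT boxes bound by NF-Y, and the DREAM complex keeps them off in resting cells. YAP with TEAD factors can also drive many of them in dividing cells. In bulk RNA, fewer cells in G2 or mitosis and less RNA per cell cannot be told apart.

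No change of a mitotic gene passed the test with either siRNA. At the threshold of the study, an unadjusted p under 0.05 with an absolute log2 fold change of at least 0.58, limma called 0 of 37 genes in siLATS1 against siControl, where 2.91% of the 12901 tested genes were called. For siLATS2 against siControl it called 0 of 37 beside 0.271% of all genes, and for siLATS1 against siLATS2 0 of 37 beside 1.86%. With Benjamini-Hochberg adjustment the members called were again 0 in each comparison, beside 0.101%, 0% and 0% of all genes. No member reached an unadjusted p under 0.05 in limma, edgeR or DESeq2, in any of the 3 comparisons, without the GC correction described further on. In limma 5.78%, 0.853% and 3.91% of all tested genes did. At the backgrounds of the unadjusted threshold, a list of this size would hold 1.08, 0.1004 and 0.688 called genes if its share were the same, so the counts of 0 lie close to the share of all genes. A p that misses the threshold does not show that levels were equal, and the intervals given further on say how large a change could have been missed.

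The siRNA label was checked on LATS1 itself. It measured 110.03, 55.2 and 62.9 CPM in siControl, 27.1, 20.1 and 15.6 CPM in siLATS1 and 54.7, 78.6 and 51.2 CPM in siLATS2. CPM relate the reads of a gene to all reads counted in the sample, and were scaled here by TMM (trimmed mean of M values) factors. All 3 siLATS1 samples lay below the other 6. The log2 fold change of siLATS1 against siControl was -1.78 (SE 0.31, limma p = 0.000399, adjusted p = 0.126), and the two-sided exact permutation test gave p = 0.1, the smallest value that 3 samples against 3 allow. LATS2 was not analysed here, so the siLATS2 label was not checked on its target. Depth ran from 23548247 to 32193525 reads per sample, so that the least expressed member, CENPA, still had at least 356 reads in every sample. One sample stood apart from the rest, siControl 1, with a median of 3.49 CPM over all genes and 4369 genes without a read, and every result below is given with that in view. Of the hepatocyte markers, 10 of 10 were present in every sample, with AFP between 4379 and 10033 CPM. Summed over 9 markers of other cell types, levels ran from 9.53 to 19.1 CPM in siControl, from 13.2 to 30.5 in siLATS1 and from 12.7 to 19.98 in siLATS2. CD3E, VWF and CDH5 reached at most 0.124 CPM in a sample, and COL1A2 was the highest of the 9 in every sample.

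The upstream sequences of 6 members are shown because they carry the CHR and CCAAT elements, and because they include members from both ends of the ordering by sample described below. CDC20, PLK1 and CDCA8 were lower in siControl 1 than in the other siControl samples, MKI67 hardly differed, and KIF11 and HMMR were higher there. Each stretch holds the 110 bases before the transcription start on the gene's own strand, 5′ to 3′, from RefSeq on GRCh38.p14. Capitals mark the CHR letters TTTGAA or TTCGAA and the CCAAT box, each in either orientation.
CDC20: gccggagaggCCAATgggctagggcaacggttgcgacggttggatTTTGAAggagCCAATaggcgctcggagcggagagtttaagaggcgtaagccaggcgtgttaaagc
PLK1: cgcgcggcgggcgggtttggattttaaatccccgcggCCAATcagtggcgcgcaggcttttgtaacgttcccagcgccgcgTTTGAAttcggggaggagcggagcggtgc
CDCA8: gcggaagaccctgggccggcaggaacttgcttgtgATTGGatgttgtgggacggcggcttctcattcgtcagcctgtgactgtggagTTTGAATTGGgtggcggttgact
MKI67: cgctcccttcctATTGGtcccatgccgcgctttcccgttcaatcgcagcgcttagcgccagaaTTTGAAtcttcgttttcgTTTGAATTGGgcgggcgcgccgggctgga
KIF11: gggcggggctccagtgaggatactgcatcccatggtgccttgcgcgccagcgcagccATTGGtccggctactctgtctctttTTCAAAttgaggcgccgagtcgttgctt
HMMR: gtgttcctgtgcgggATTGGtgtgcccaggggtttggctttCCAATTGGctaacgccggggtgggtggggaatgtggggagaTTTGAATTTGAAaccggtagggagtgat
They lie at chr1:43358871-43358980 (CDC20), chr16:23678779-23678888 (PLK1), chr1:37692406-37692515 (CDCA8), chr10:128126424-128126533 (MKI67), chr10:92593020-92593129 (KIF11) and chr5:163460522-163460631 (HMMR). All 6 hold both kinds of element because they were chosen for it. Other members do not, and KIF2C holds neither in its 110 bases. The same letters were searched on both strands of windows from 250 bases before to 50 bases after the start, of which 38 belonged to 31 members. CHR letters were in 68.4% of these windows, against 16.4% of all 35116 windows. CCAAT was in 76.3% against 34.6%, and both together in 55.3% against 6.38%. GGAATG, the letters of the TEAD motif, were in 15.8% of the members' windows and in 14.0% of all. A match is a description of letters and not a measured binding site.

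Among the regulators of mitotic entry, CDK1 (983) is the kinase that starts mitosis, CCNA2 (890), CCNB1 (891) and CCNB2 (9133) are its cyclins and CDC25C (995) the phosphatase that activates it. FOXM1 (2305) is the transcription factor of the programme, and PLK1 (5347), AURKA (6790) and NEK2 (4751) are kinases of centrosome and spindle. CDK1, at chr10:62538236-62554610 on GRCh37 (the build of the data, used for all gene positions that follow), measured 201, 97.2 and 109.8 CPM in siControl, 141, 134 and 97.5 in siLATS1 and 109.9, 143 and 102 in siLATS2. The groups overlapped, with the highest value in siControl 1 and the lowest in siControl 2. Its log2 fold change was -0.08 (SE 0.29, limma adjusted p = 0.981) for siLATS1 and -0.14 (SE 0.29, adjusted p = 0.95) for siLATS2. CCNB1, at chr5:68462977-68474072, measured 508, 374 and 379.9 CPM in siControl, 369.5, 410.3 and 304 in siLATS1 and 386, 460.5 and 358 in siLATS2. Again siControl 1 was the highest sample, while siLATS1 3 was the lowest, and the log2 fold change was -0.21 (SE 0.18, limma adjusted p = 0.979) for siLATS1 and -0.06 (SE 0.18, adjusted p = 0.952) for siLATS2. FOXM1, at chr12:2966846-2986340, showed the opposite order, with 159, 338 and 287 CPM in siControl, 231, 276 and 313 in siLATS1 and 309, 272 and 307 in siLATS2. Here siControl 1 was the lowest of all 9 samples and siControl 2 the highest. The FOXM1 log2 fold change was 0.12 (SE 0.27, limma adjusted p = 0.979) for siLATS1 and 0.25 (SE 0.27, adjusted p = 0.95) for siLATS2.

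PLK1, at chr16:23690210-23701688, measured 73.2, 181 and 168 CPM in siControl, 98.1, 133 and 167 in siLATS1 and 159, 131 and 179.7 in siLATS2. Its lowest value was also that of siControl 1, less than the value of any knockdown sample. The log2 fold change was -0.01 (SE 0.35, limma adjusted p = 0.998) for siLATS1 and 0.25 (SE 0.35, adjusted p = 0.95) for siLATS2. AURKA, at chr20:54944446-54967271, measured 167, 137 and 126 CPM in siControl, 115, 133 and 112 in siLATS1 and 136, 151 and 131 in siLATS2. AURKA had the lowest p of the 37 genes for siLATS1 against siControl in limma and also in edgeR, and siLATS1 2 lay above siControl 3. The fold change on the log2 scale was -0.25 (SE 0.15, limma adjusted p = 0.979) for siLATS1 and -0.03 (SE 0.15, adjusted p = 0.964) for siLATS2. Summed over the 9 regulators, levels were 1697, 1461 and 1416 CPM in siControl, 1395, 1479 and 1334 in siLATS1 and 1474, 1602 and 1407 in siLATS2, and the 3 groups overlapped.

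TOP2A (7153) untangles sister chromatids, and MKI67 (4288), the proliferation marker Ki-67, coats mitotic chromosomes. TOP2A, at chr17:38544777-38574148, measured 856, 423 and 452 CPM in siControl, 581, 559 and 414 in siLATS1 and 403, 548 and 317 in siLATS2. The siControl 1 value was the highest CPM of any member in any sample, and siLATS2 3 was the lowest for this gene. The log2 fold change was -0.09 (SE 0.31, limma adjusted p = 0.979) for siLATS1 and -0.41 (SE 0.31, adjusted p = 0.95) for siLATS2. MKI67, at chr10:129894923-129924687, was the steadiest of the 11 genes given by sample, with 613, 657 and 523 CPM in siControl, 517, 561 and 550.4 in siLATS1 and 593, 566 and 532 in siLATS2. Its log2 fold change of -0.13 (SE 0.12, limma adjusted p = 0.979) for siLATS1 and -0.08 (SE 0.12, adjusted p = 0.95) for siLATS2 had the narrowest interval of the 11, from -0.42 to 0.15 and from -0.36 to 0.21.

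The spindle checkpoint, which delays anaphase until all chromosomes are attached, was represented by BUB1 (699), BUB1B (701), MAD2L1 (4085) and TTK (7272). CDC20 (991) and UBE2C (11065) activate and supply the anaphase-promoting complex, and PTTG1 (9232) is securin, the inhibitor of separase. BUB1, at chr2:111395105-111435640, measured 209.6, 145 and 147 CPM in siControl, 154, 155 and 127 in siLATS1 and 153, 183 and 140.4 in siLATS2. It was highest in siControl 1 and lowest in siLATS1 3, and the log2 fold change was -0.19 (SE 0.19, limma adjusted p = 0.979) for siLATS1 and -0.06 (SE 0.19, adjusted p = 0.953) for siLATS2. TTK and CDC20, chosen here after their values were seen, were the 2 extremes of this set. TTK measured 153, 50.7 and 73.2 CPM in siControl, 85.7, 76.8 and 51.1 in siLATS1 and 59.95, 95.9 and 54.5 in siLATS2, whereas CDC20 measured 112, 384 and 333 CPM in siControl, 206, 304 and 307 in siLATS1 and 309, 285 and 354 in siLATS2. For both genes all 6 knockdown samples lay inside the range of the siControl samples, which siControl 1 set from above for TTK and from below for CDC20. Sums over the 7 genes were 1334, 1229 and 1160.0 CPM in siControl, 1109, 1213 and 1067 in siLATS1 and 1201, 1306 and 1179 in siLATS2, and the groups overlapped.

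At the centromere, CENPA (1058) is the histone variant that marks it, CENPE (1062) is a kinesin, CENPF (1063) binds the outer kinetochore, and NDC80 (10403) and NUF2 (83540) hold the microtubules. AURKB (9212), BIRC5 (332) (survivin) and CDCA8 (55143) (borealin) belong to the chromosomal passenger complex, which corrects wrong attachments. CENPF, at chr1:214776538-214837914, measured 481, 308 and 307 CPM in siControl, 345, 379 and 283 in siLATS1 and 308, 353 and 295 in siLATS2, with the highest value in siControl 1 and the lowest in siLATS1 3. The log2 fold change was -0.10 (SE 0.20, limma adjusted p = 0.979) for siLATS1 and -0.17 (SE 0.20, adjusted p = 0.95) for siLATS2. AURKB, at chr17:8108052-8113893, measured 52.3, 185 and 175 CPM in siControl, 116, 142 and 206 in siLATS1 and 168, 133 and 180.2 in siLATS2. Its siControl 1 value lay well below the other 8 samples. AURKB had the largest positive log2 fold changes of the 37 genes, 0.33 (SE 0.46, limma adjusted p = 0.979) for siLATS1 and 0.41 (SE 0.46, adjusted p = 0.95) for siLATS2, and both turned negative, to -0.27 and -0.19, without siControl 1. Over the 8 genes the sums were 1046, 916 and 929 CPM in siControl, 862, 956 and 893 in siLATS1 and 893, 961 and 905 in siLATS2, which overlapped.

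Spindle assembly was represented by KIF11 (3832), the kinesin that pushes the poles apart, KIF2C (11004), a kinesin that shortens microtubules, TPX2 (22974), which activates AURKA, and HMMR (3161), DLGAP5 (9787) and NUSAP1 (51203), which bind microtubules. KIF11, at chr10:94352887-94415152, measured 194, 87.7 and 100.2 CPM in siControl, 126, 107 and 80.3 in siLATS1 and 94.4, 124 and 83.8 in siLATS2, and siControl 1 stood above all others. The log2 fold change was -0.21 (SE 0.32, limma adjusted p = 0.979) for siLATS1 and -0.26 (SE 0.32, adjusted p = 0.95) for siLATS2. KIF2C was the one member whose samples did not overlap between 2 groups, with 143, 168 and 161 CPM in siLATS1 below 184, 171 and 183 CPM in siLATS2 (log2 fold change -0.19, SE 0.16, limma adjusted p = 1). That is 1 of 37 genes, where 12.4% of all tested genes did not overlap between these groups. In siLATS1 against siControl 0 of 37 did not overlap (8.48% of all genes), and in siLATS2 against siControl 0 of 37 (3.51%). The sums over the 6 genes were 1764, 1256 and 1158 CPM in siControl, 1306, 1323 and 1141 in siLATS1 and 1278, 1464 and 1180.3 in siLATS2.

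At the end of mitosis PRC1 (9055) and the kinesins KIF20A (10112) and KIF23 (9493) build the central spindle, and ECT2 (1894) and ANLN (54443) set up the contractile ring. Sums over these 5 genes were 1679, 1174 and 1127 CPM in siControl, 1228, 1243 and 1081 in siLATS1 and 1216, 1379.5 and 1139 in siLATS2, with the groups overlapping. ECT2 had the lowest log2 fold change of all members for siLATS1 against siControl (-0.33). For the 26 members other than the 11 named by the choice of genes, mean levels over the 9 samples ran from 15.4 CPM (CENPA) to 643 CPM (TPX2). Per kilobase of transcript, the highest members by mean scaled CPM were PTTG1 (347), CCNB1 (194), TPX2 (185) and CDC20 (175), and the lowest were CENPE (9.57) and CENPA (11.1).

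Over all 37 genes, the median log2 fold change of siLATS1 against siControl was -0.11, with 10 genes above 0 and 27 below, beside a median of 0.02 over all tested genes. The values lay between -0.33 (ECT2) and 0.33 (AURKB). For siLATS2 against siControl the median was -0.06, with 13 genes above 0, beside 0.03 over all genes, and the values lay between -0.41 (TOP2A) and 0.41 (AURKB). Both comparisons share the siControl samples. Between siLATS1 and siLATS2 the median was -0.04, beside -0.03 over all genes. The 95% confidence interval lay wholly inside a log2 fold change of ±0.58 for 15, 15 and 18 of the 37 genes in the 3 comparisons, against 27.2%, 33.2% and 30.2% of all genes. The widest intervals reached from -1.19 (HMMR) to 1.39 (AURKB) in siLATS1 and from -1.26 (HMMR) to 1.47 (AURKB) in siLATS2. For those genes a change of more than 2-fold could not have been called absent.

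Much of this spread lay in siControl 1. Summed over the 37 genes, levels were 8988, 7115 and 6765 CPM in siControl, 6997, 7334 and 6480 in siLATS1 and 7058, 7826 and 6659 in siLATS2. The group means were 7623 ± 1196, 6937 ± 430.1 and 7181 ± 593 (SD, n = 3). For 26 members siControl 1 was the highest of the 9 samples and for 7 the lowest, so that it was an extreme for 33 of 37. Over all tested genes it was the highest for 41.8% and the lowest for 39.6%. The median coefficient of variation of the members was 30.3% in siControl, 13.8% in siLATS1 and 11.9% in siLATS2, and 9.23% between siControl 2 and 3 alone. For all tested genes the medians in the 3 groups were 33.4%, 18.4% and 14.7%.

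The members did not move as a block in siControl 1. Against the mean of siControl 2 and 3, 28 were higher and 9 lower, 19 and 4 of them by at least 0.58 on the log2 scale. Of all tested genes 29.7% were higher and 31.7% lower by that much. The highest were TTK (log2 difference 1.31), HMMR (1.14) and NUF2 (1.11), and the lowest AURKB (-1.76), CDC20 (-1.67) and PLK1 (-1.24). AURKB is a partner of BIRC5 and CDCA8, and all 3 were lower there. TPX2, which activates AURKA, was higher, like AURKA. CDC20 was lower while its checkpoint inhibitors MAD2L1 and BUB1B were higher, so members that act in the same step fell on both sides. The order followed the GC content of the transcript, a pattern seen in the values and described here without a test. Over the 37 members Pearson's r between the siControl 1 difference and transcript GC was -0.95, and over 12522 tested genes with a transcript it was -0.87. Genes are not independent replicates, and all share one library. With the log2 length of the transcript r was 0.33 and 0.26. The 8 members with a GC content of at least 50% were all lower in siControl 1, and 28 of the 29 below 50% were higher. The one exception, KIF20A, had a GC content of 48.2% and a difference of -0.08. The median GC content was 42.1% for the members and 47.6% for all tested genes.

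**Figure D1:**
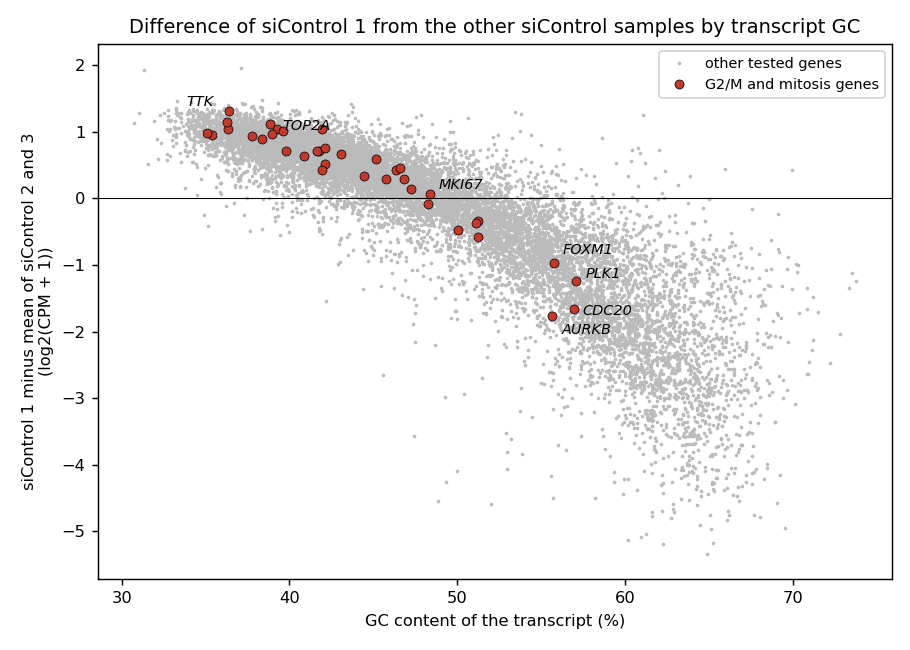
log2(CPM + 1) in siControl 1 minus the mean of siControl 2 and 3 (vertical axis) against the GC content of the transcript in percent (horizontal axis), for the 37 mitotic genes (red) and the other tested genes (grey). The red points fall along the grey band from TTK at 1.31 to AURKB at -1.76 and cross 0 near MKI67.

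Most other samples also carried a trend with GC content, some in the direction of siControl 1 and some in the opposite one. The members differed less there. Their median absolute difference from the 9-sample mean was 0.54 in siControl 1, and the largest elsewhere was 0.24, in siLATS1 3. Relative to the mean of the 9 samples, r between a member's difference and its GC content was -0.84 in siLATS1 1 and -0.79 in siLATS2 2, in the direction of siControl 1. It was 0.91 in siLATS1 3, 0.90 in siLATS2 1 and in siLATS2 3, and 0.95 in siControl 2. In siControl 3 and siLATS1 2 it was 0.42 and -0.29. That mean contains siControl 1 itself. Set against the mean of the other samples with siControl 1 left out, r was -0.90 in siLATS1 1, -0.85 in siLATS1 2 and 0.85 in siLATS1 3. It was 0.69 in siLATS2 1, -0.90 in siLATS2 2 and 0.83 in siLATS2 3, so both siLATS groups held samples of both directions. In siControl 2 and 3 it was 0.92 and -0.08. Over all tested genes with a transcript, r on this second scale was 0.63 and 0.46 in siControl 2 and 3. It was -0.77, -0.59 and 0.69 in siLATS1 1, 2 and 3, and 0.32, -0.83 and 0.70 in siLATS2 1, 2 and 3.

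Leaving out siControl 1 turned the direction of 24 of 37 fold changes for siLATS1 and of 27 of 37 for siLATS2. The median became 0.03 for siLATS1, with 24 genes above 0, and 0.09 for siLATS2, with 28 above 0. Members called remained 0, and the lowest p was 0.0521 (CDC20, log2 fold change -0.43, siLATS1) and 0.158 (CDC25C, siLATS2). For siLATS1, leaving out siControl 1 was the only one of the 18 other settings that turned the median above 0. For siLATS2, leaving out siLATS2 3 also did, with a median of 0.012. For siLATS1 against siLATS2, which does not use the siControl values for its means, the direction of all 37 was kept.

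**Figure D2:**
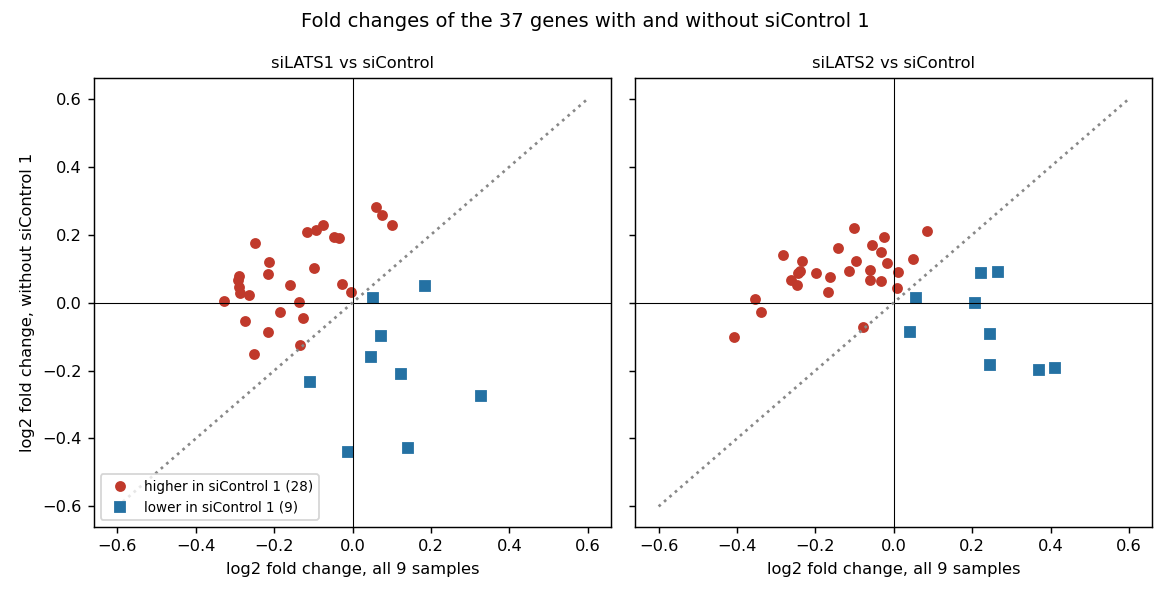
log2 fold change of each of the 37 genes with all 9 samples (horizontal axis) and without siControl 1 (vertical axis), for siLATS1 and siLATS2 against siControl, with the dotted line marking equal values. Members higher in siControl 1 (28, red circles) moved up and the 9 lower there (blue squares) moved down. These directions follow from taking that sample out of the siControl mean. Above 0 were then 22 and 25 of the 28.

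Another setting, chosen after the trend was seen, subtracted from each sample its own trend with transcript GC over 12522 genes before the fit. It also removes any difference between the siRNA groups that follows GC content. Part of the trend remained in the members. After the correction, r between a member's difference and its GC content was -0.53 in siControl 1 and 0.50 in siControl 2. In the other samples it lay between -0.25 and 0.39. The lowest member difference in siControl 1 was still -0.64. The median absolute difference of the members from their 9-sample mean fell from 0.54 to 0.10 in siControl 1, and the median SE of a member's fold change fell from 0.21 to 0.08. The 95% intervals then lay inside ±0.58 for 36, 36 and 37 of the 37 genes (70.7%, 77.2% and 73.3% of all genes). The exceptions were AURKB in both comparisons with siControl, with upper bounds of 0.61 and 0.63. The medians were -0.06, -0.01 and -0.03. LATS1 kept a log2 fold change of -1.64 (SE 0.09, limma adjusted p = 0.000224).

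Members past both thresholds were still 0 after the GC correction. An unadjusted p under 0.05 was reached by 5 members for siLATS1 against siControl, beside 17.1% of all genes. They were PLK1 (-0.21), AURKA (-0.19), BIRC5 (-0.16), ECT2 (-0.16) and NEK2 (0.16). The lowest adjusted p among them was 0.179 (limma, PLK1). One member reached it for siLATS2 beside 3.72% of all genes, TOP2A (-0.24, adjusted p = 0.943), and 4 for siLATS1 against siLATS2 beside 13.5%, led by TOP2A (0.29, adjusted p = 0.206). A list of this size would hold 6.34, 1.38 and 5.01 such genes if its share were that of all genes, so these counts lie close to that share.

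**Figure D3:**
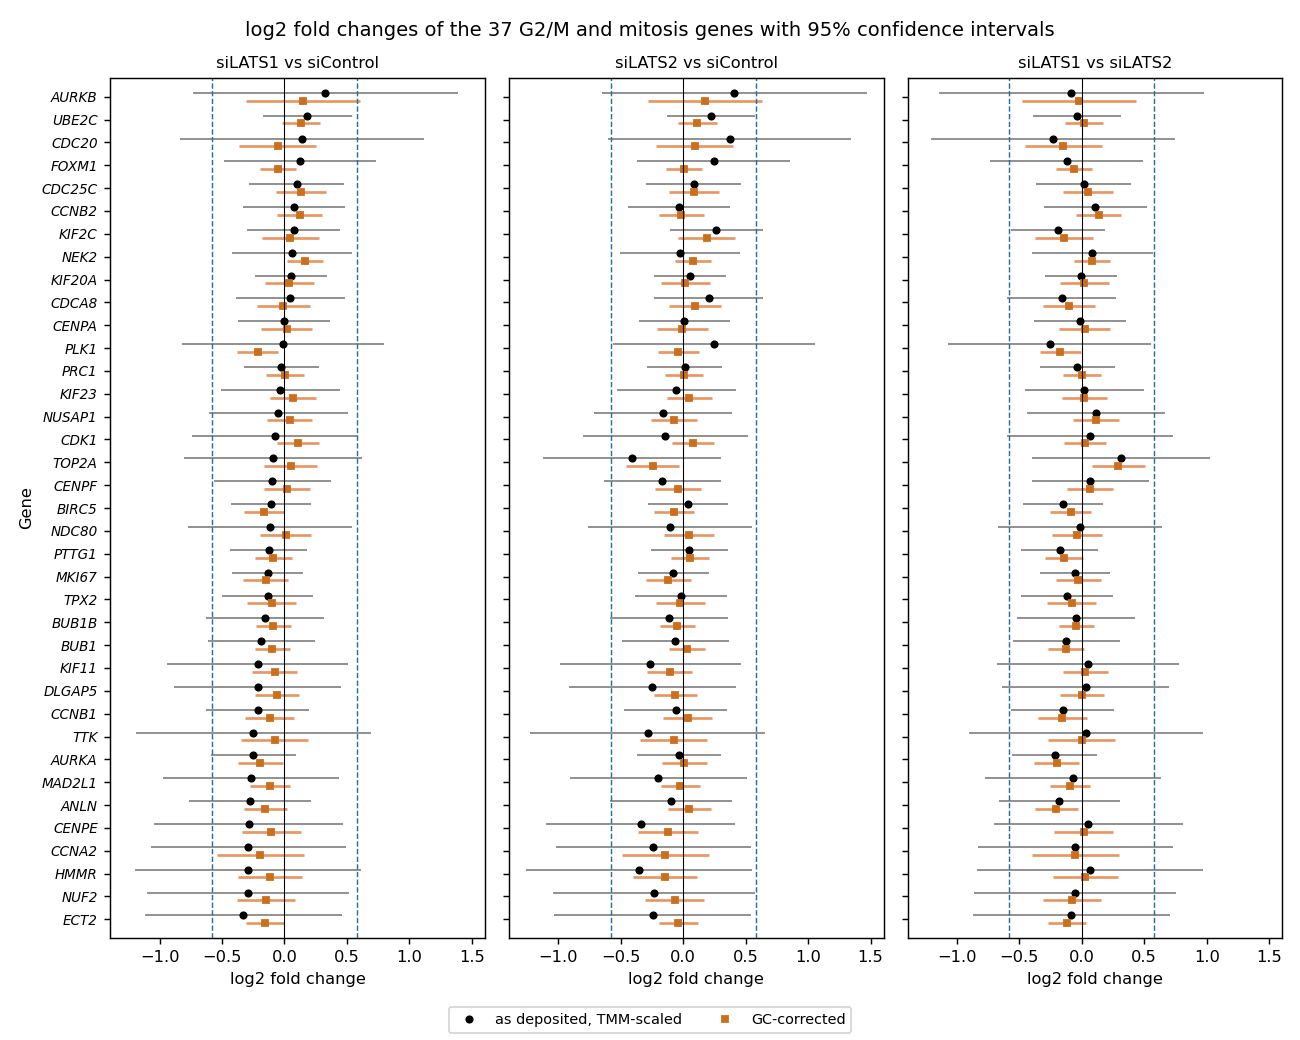
log2 fold changes (points) with 95% confidence intervals (lines) of the 37 genes in the 3 comparisons, from TMM-scaled CPM (black) and after the GC correction (orange), with dashed lines at ±0.58. No point passes a dashed line, and after the correction only the AURKB interval reaches past one, in both comparisons with siControl.

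The genes around the members gave the same counts. Of 83 other G2/M and mitosis genes, 82 were tested and 0 passed the unadjusted threshold in limma in any comparison, with an unadjusted p under 0.05 for 1, 0 and 1 of them, and medians of -0.09, -0.04 and -0.06. Their median difference in siControl 1 from the 9-sample mean was 0.37, beside 0.43 for the members and 0.05 for all tested genes. Of the 11 genes listed as DREAM and MuvB subunits, FOXM1 among them, and the 12 subunits of the anaphase-promoting complex, 0 passed, and 0 had an unadjusted p under 0.05. Of the 24 G1/S and replication genes 0 passed either, with an unadjusted p under 0.05 for 1 gene in siLATS1 against siLATS2. The G1/S genes stood at 0.09 in siControl 1. No test compared these lists with the members.

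Exons of 9 members overlap those of another annotated gene. NUSAP1 and BUB1B share 2213 and 217 bases with a gene on the same strand. Overlaps were summed over the other genes, so bases shared with several genes count repeatedly. For PRC1, with a transcript of 3072 bases, the sum was 3082 bases with genes on both strands. For CCNA2, PLK1, KIF20A, KIF23, KIF2C and HMMR it was between 74 and 254 bases with genes on the opposite strand. The use of strand in counting is not given in the sources used here, so reads from the shared bases could not be told apart.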

How the data were processed

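RNA-seq values of 9 Huh7 samples were used, 3 per siRNA. Per the labels, total RNA was depleted of ribosomal RNA and prepared as stranded libraries. The study's methods likewise name a stranded kit for total RNA, but also speak of poly-A+ RNA. The authors used STAR to place single-end reads on hg19 (GRCh37), kept unique hits, took exon counts of RefSeq genes with QuasR, and deposited CPM per Entrez gene. Every value was a whole multiple of 1 read (tolerance 0.01 reads), which gave the reads back. In each sample 1 row without an identifier was left out. Symbols came from RefSeq (20474 of 20575 matched, and 37 of 37 members). The members and lists were chosen with earlier results of these data known.

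CPM were scaled by TMM factors (0.957 in siControl 1 to 1.06 in siLATS1 3). The filter kept the 12901 genes, all members included, that reached 1 CPM in 3 or more samples, and log2(CPM + 1) was fitted with limma 3.58.1 (R 4.3.3) with a mean-variance trend and 1 mean per group. Fold changes on this scale understate changes of low genes. Values by sample are given for the 11 members that the choice of genes named and for TTK, CDC20 and KIF2C, others by range, and genes of the other lists where past the unadjusted threshold, up to 4 each. The extremes named in siControl 1, TTK, CDC20 and KIF2C were chosen after their values were seen. edgeR 4.0.16 and DESeq2 1.42.0 on the recovered reads were alternatives. Transcript GC and length came from GENCODE canonical transcripts on GRCh37, matched by symbol for 97.1% of tested genes. The GC correction subtracted, in each sample, the median difference in 20 bins of GC, interpolated. On simulated data for siLATS1 against siControl, 100% of 200 genes changed by 2 on the log2 scale were recovered among 12799 tested. The simulation had a dispersion of 0.02, no trend with GC content and no sample that stood apart. It checked that the code finds large changes, and does not show that smaller ones would be found in the real samples.

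The replicate numbers were checked for pairing. The labels name no shared culture or batch, and 5 of 9 same-numbered pairs had a correlation of deviations over 0.1 (range -0.87 to 0.92). For 6 of 9 samples the best correlation was with a sample of the same number. These deviations also carry the trend with GC content, so the check cannot settle pairing. The samples were not treated as paired, and the replicate number as a block is given as an alternative below. The methods describe biological triplicates without naming separate cultures, and p-values measure the spread between these samples.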

Additional observations from a re-analysis of the deposited data

How the results depend on the processing

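Members past the unadjusted threshold were 0 in all 3 comparisons in each of the 18 other settings, and the LATS1 fold change kept its direction in all of them (-2.02 to -1.50). The median of the members ranged from -0.24 (without siControl 3) to 0.03 (without siControl 1) for siLATS1, from -0.20 to 0.09 for siLATS2 and from -0.10 to 0.04 for siLATS1 against siLATS2. It turned above 0 without siControl 1 for siLATS1, without siControl 1 or siLATS2 3 (0.012) for siLATS2, and with no scaling beyond CPM (0.031), without siLATS1 3 or without siLATS2 2 (0.029) for siLATS1 against siLATS2. Without scaling beyond CPM the siLATS1 fold changes of CDK1 and PLK1 turned to 0.014 and 0.079. With the GC correction, chosen after seeing the data, those of CDK1, FOXM1, TOP2A and CENPF turned to 0.10, -0.053, 0.049 and 0.022, and for siLATS2 those of CDK1, CCNB1, PLK1, AURKA and BUB1 to 0.075, 0.035, -0.040, 0.0090 and 0.030. Leaving out 1 sample at a time turned some directions for siLATS1, with ranges of -0.32 to 0.23 (CDK1), -0.21 to 0.30 (FOXM1), -0.44 to 0.18 (PLK1), -0.33 to 0.22 (TOP2A), -0.25 to 0.10 (CENPF), -0.27 to 0.60 (AURKB) and -0.48 to 0.12 (KIF11). For siLATS2 they were -0.41 to 0.16 (CDK1), -0.20 to 0.066 (CCNB1), -0.092 to 0.40 (FOXM1), -0.18 to 0.42 (PLK1), -0.13 to 0.065 (AURKA), -0.22 to 0.10 (BUB1), -0.34 to 0.032 (CENPF), -0.19 to 0.67 (AURKB) and -0.55 to 0.068 (KIF11). The cause was not tested.

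With the replicate number as a block, the members called were 0 in each comparison, with medians of -0.11, -0.06 and -0.04, and 400, 46 and 256 of all genes passed the unadjusted threshold. The block changed no call of a member. Over all genes, the number past that threshold ran from 221 (without siLATS1 3) to 730 (without siControl 1) for siLATS1 and from 11 (without siLATS2 3) to 72 (pseudocount 0.1) for siLATS2, with 68 in edgeR and 70 in DESeq2. After adjustment it was 0 with the block and in the 6 compared samples alone, 5 in edgeR, 166 in DESeq2 and 164 with the GC correction for siLATS1, and 3 without a filter, 100 in DESeq2 and 87 with the GC correction for siLATS1 against siLATS2. Each member had at least 356 reads in every sample.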

Other observations

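Among the 8 genes listed as CDK inhibitors, 6 were tested and 1 passed the unadjusted threshold in any comparison. CDKN2C, the inhibitor p18 of CDK4 and CDK6, measured 2.20, 2.53 and 3.84 CPM in siControl, 3.79, 4.65 and 6.31 CPM in siLATS1 and 3.36, 2.88 and 3.55 CPM in siLATS2. The siLATS1 and siControl samples overlapped at 3.79 and 3.84 CPM. Its log2 fold change in siLATS1 was 0.62 (SE 0.22, limma adjusted p = 0.656), and 0.49 without siControl 1, which is under the threshold. CDKN3, a phosphatase that acts on CDKs, was the highest of the list in every sample and was also highest in siControl 1, at 159 CPM, with between 78.5 and 125 CPM in the other 8 samples.

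Among the marker lists, the unadjusted threshold was passed in siLATS1 against siControl by SERPINA1 (log2 fold change 0.72, adjusted p = 0.499), TTR (0.77, adjusted p = 0.802), APOB (-0.70, adjusted p = 0.691) and PECAM1 (-0.72, adjusted p = 0.421, at 0.643 to 2.72 CPM), and against siLATS2 by SERPINA1 (0.63, adjusted p = 0.891), all in limma. Without siControl 1 the log2 fold changes in siLATS1 were 0.52 for SERPINA1, 0.39 for TTR, -0.50 for APOB and -0.64 for PECAM1.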
